A study of Arabidopsis thaliana with 63 samples.

Results

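PDF1.2a, PDF1.2b, PDF1.2c, HEL, CHIB, ERF1 and ORA59 are genes of the branch of plant defense that ethylene and jasmonate switch on together. They were chosen by locus identifier, with earlier results of these data known. All 7 were found in the RNA-seq tables of both mutants, which list 26870 genes and 3091 transposable elements (TEs). RNA was from whole, untreated seedlings of Arabidopsis thaliana, aged 10 days, in the Col-0 background, with 3 libraries for each genotype. The h2a.w-1 mutant combines the T-DNA alleles hta6-1, hta7 and hta12 in the 3 genes of the heterochromatic histone variant H2A.W, and it also carries a rearrangement that raises the copy number of a stretch on the right arm of chromosome 1. In crosses of hta6-1 with WT, plants with that raised dosage were small. The h2a.w-2 mutant combines the same hta7 and hta12 alleles with hta6-2, a CRISPR-Cas9 frameshift allele freed of the Cas9 transgene, and was made without the rearranged hta6-1. WT was Col-0, and all plants grew in long days. The libraries of WT served in the comparisons of both mutants, and the labels do not say whether the libraries of a genotype came from separately grown plants, so p-values measure the spread between these libraries only. In whole seedlings, fewer cells of a type and less RNA per cell cannot be told apart.

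In Arabidopsis, ethylene stabilizes the transcription factors EIN3 and EIL1, and jasmonate frees them and others from JAZ repressors through the receptor COI1. EIN3 and EIL1 turn on ERF1 and ORA59, AP2/ERF transcription factors that bind the GCC box and activate plant defensins of the PDF1.2 type, the hevein-like protein HEL (also called PR4) and the basic chitinase CHIB (also called PR3). A competing branch led by MYC2 turns on wound genes such as VSP2 and holds the ERF branch down. PDF1.2 transcript is a standard marker for the ERF branch, and its proteins are small, secreted and cysteine-rich antifungal peptides.

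The 3 PDF1.2 genes encode nearly the same peptide from different places, so their coding sequences show how far reads can tell them apart. PDF1.2a (AT5G44420, chr5:17906968-17907638, minus strand) and PDF1.2c (AT5G44430, chr5:17908850-17909507, minus strand) are tandem neighbors with 1211 bases and no annotated gene between them. PDF1.2b (AT2G26020, chr2:11089123-11089805, plus strand) lies on chromosome 2, with 1121 bases between it and the related defensin gene PDF1.3. All positions, gene models and sequences are those of RefSeq for the TAIR10.1 assembly. Each of the 3 genes has 2 exons and a coding sequence of 243 bases, printed here with capitals at the 22 positions where the 3 are not all alike:
PDF1.2a: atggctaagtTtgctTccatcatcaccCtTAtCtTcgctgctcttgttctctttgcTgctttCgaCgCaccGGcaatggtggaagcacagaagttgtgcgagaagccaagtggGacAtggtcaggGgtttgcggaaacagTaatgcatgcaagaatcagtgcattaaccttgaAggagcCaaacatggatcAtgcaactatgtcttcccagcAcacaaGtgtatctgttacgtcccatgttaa
PDF1.2b: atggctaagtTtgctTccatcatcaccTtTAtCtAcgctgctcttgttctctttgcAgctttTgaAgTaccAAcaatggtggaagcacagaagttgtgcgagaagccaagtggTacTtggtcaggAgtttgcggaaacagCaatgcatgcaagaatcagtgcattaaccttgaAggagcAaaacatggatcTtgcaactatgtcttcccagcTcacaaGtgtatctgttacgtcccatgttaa
PDF1.2c: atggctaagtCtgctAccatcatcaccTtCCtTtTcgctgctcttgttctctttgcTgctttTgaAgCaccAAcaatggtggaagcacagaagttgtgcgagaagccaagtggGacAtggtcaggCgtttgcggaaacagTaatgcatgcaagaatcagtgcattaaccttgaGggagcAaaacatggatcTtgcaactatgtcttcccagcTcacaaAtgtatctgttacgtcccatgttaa

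Identity over the coding sequence was 93.83% for PDF1.2a and PDF1.2b, 93.42% for PDF1.2a and PDF1.2c, and 94.24% for PDF1.2b and PDF1.2c. Every window of 75 bases, the read length, within an exon of any of the 7 genes occurs once in the assembly, so an errorless read on these exons has a unique place. A read that differs from its own gene by a sequencing error can still come nearer to a paralog, and the split of reads among the 3 genes is less certain than their sum.

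HEL (AT3G04720, chr3:1285425-1286760, minus strand) and CHIB (AT3G12500, chr3:3962136-3963984, minus strand) have 2 exons each. ERF1 (AT3G23240, chr3:8295617-8296604, plus strand) and ORA59 (AT1G06160, chr1:1882907-1883992, plus strand) have 1 exon each. ORA59 is on the left arm of chromosome 1, away from the stretch with the extra copy in h2a.w-1. CHIB overlaps AT3G12502, a gene on the other strand, which had between 0 and 5 reads in each of the 9 libraries. No other member overlaps an annotated gene.

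The binding site of ERF1 and ORA59, the GCC box, was looked for in the 300 bases before the transcript start of each member as its core GCCGCC, on either strand. The core was in the window of 3 of the 7 members, PDF1.2a, PDF1.2b and ORA59, against 2.26% of 27443 such windows of protein-coding genes (PCGs). The G-box CACGTG, to which MYC2 and other factors bind, was in the window of ORA59 alone, against 7.09% of the windows. The short stretches around these letters are shown because PDF1.2a and PDF1.2b share the box with its left flank and PDF1.2c does not. Capitals mark the core and, in ORA59, also the G-box, and for PDF1.2c they mark the 6 bases at the matching place:
PDF1.2a, chr5:17907843-17907872, minus strand: tcagattaaccaGCCGCCcatgtgaacgat
PDF1.2b, chr2:11088968-11088997, plus strand: tcagattaaccaGCCGCCcatgcaaagcca
PDF1.2c, chr5:17909794-17909823, minus strand: tcaaattaaccaGCAGCCcatgtgaacaat
ORA59, chr1:1882671-1882724, plus strand: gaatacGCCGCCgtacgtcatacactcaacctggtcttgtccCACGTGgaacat

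The core begins 310 bases before the start codon in PDF1.2a and 301 bases before it in PDF1.2b. At the matching place of PDF1.2c, found by the flank it shares with PDF1.2a, the difference is C3A, counted from the first base of the core, with the base of PDF1.2a first. That place begins 304 bases before the annotated transcript start of PDF1.2c, just outside its window. A match of letters is a description, and a window without one says only that these letters are not in it.

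Between 5876720 and 9490656 reads per library were recovered from the deposited means, and the libraries of each genotype are lettered from A (largest size factor) to C (smallest), as the deposited columns name no replicates. HTA6, HTA7 and HTA12, the disrupted genes, were first checked against the labels. In h2a.w-1 they were at 5.81% to 23.1% of the WT mean in every library. In h2a.w-2-labelled libraries, HTA6 was at 23.5% to 33.9% and HTA7 at 11.4% to 15.2%, but HTA12 had 28, 107 and 17 reads, which put library B at 108% of the WT mean against its label. Results of these samples are therefore given for h2a.w-2-labelled libraries. Each member fitted against WT, the counts over the members and the values of other named genes that shifted by over 1.5 times are given again without library B. HTA12 overlaps AT5G02570, a gene on the other strand in the TAIR10.1 annotation, and the strand option of the counting was not given in the sources used here. AT5G02570 had 28, 8 and 10 reads in h2a.w-1, and 31, 31 and 15 reads in h2a.w-2-labelled libraries, against 4, 10 and 11 reads in WT. The source of the HTA12 reads in library B was not tested. No 2 libraries of a genotype agreed within sampling noise, with a chi-square of 3.27 to 16.8 per degree of freedom.

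Per kilobase of transcript, the normalized read counts of the 7 genes spanned a wide range. In h2a.w-1 the order of mean levels per kilobase was HEL (809.9), CHIB (323.3), PDF1.2a (75.38), ORA59 (56.82), PDF1.2c (37.21), PDF1.2b (19.95) and ERF1 (13.71). From PDF1.2a downward, each gene overlapped the next in its h2a.w-1 libraries. In h2a.w-2-labelled libraries the order of levels per kilobase was HEL (1553), CHIB (615.2), ORA59 (178.0), ERF1 (28.73), PDF1.2b (17.4), PDF1.2a (14.4) and PDF1.2c (2.214), and from ERF1 downward each overlapped the next. In WT the order per kilobase was HEL (1329), CHIB (652.4), ORA59 (276.3), PDF1.2b (119.5), PDF1.2a (115.9), ERF1 (23.35) and PDF1.2c (11.73). The neighbors PDF1.2b and PDF1.2a overlapped in their WT libraries, as did ERF1 and PDF1.2c, and the other neighbors in the order did not.

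**Figure D1:**
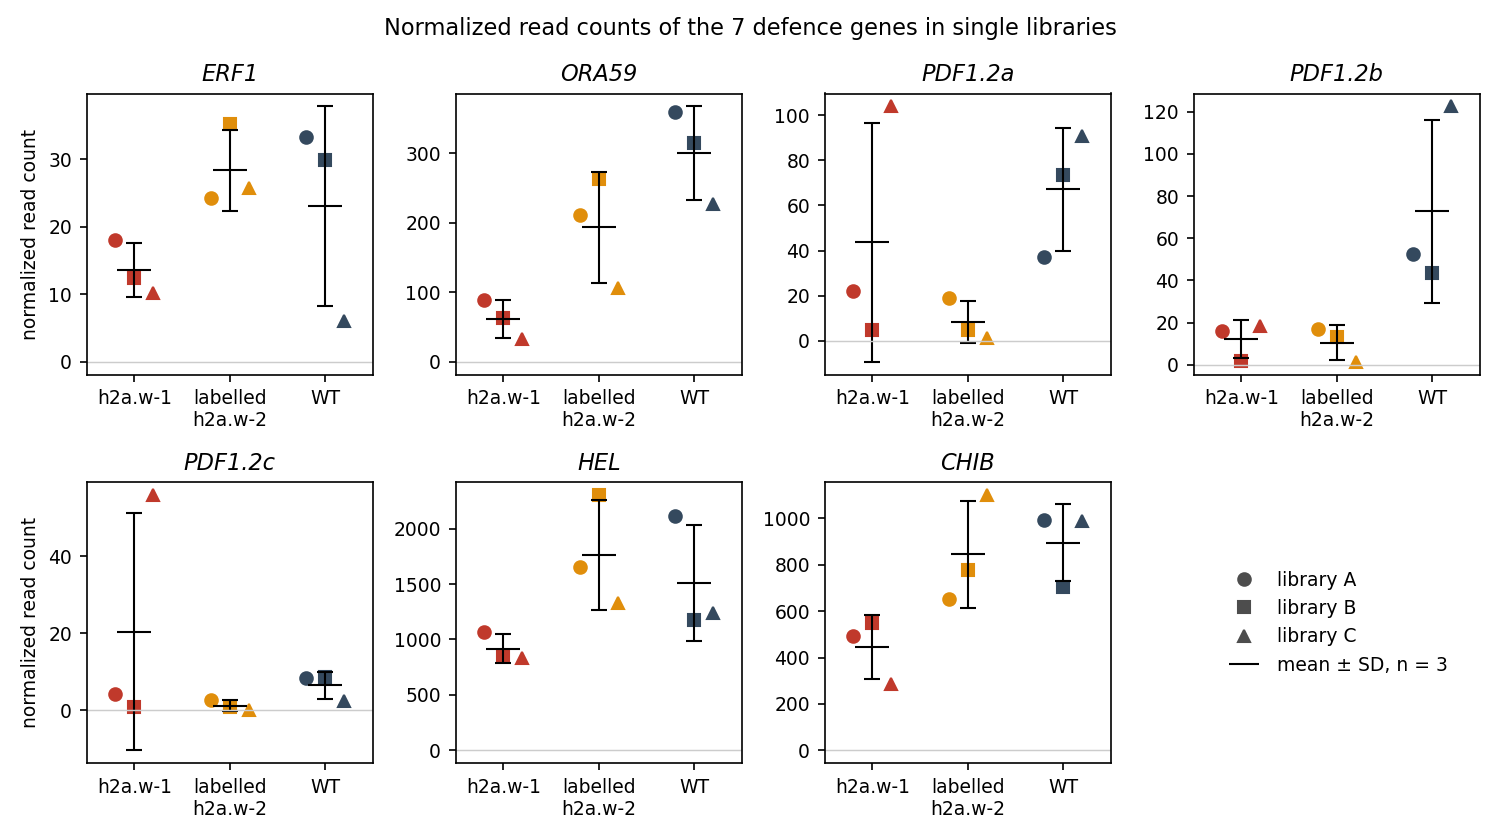
Normalized read count (y axis, linear, read count divided by a size factor over all 9 libraries) of the 7 genes in h2a.w-1, h2a.w-2-labelled libraries and WT. Circles, squares and triangles are libraries A, B and C, and bars give the mean ± SD (n = 3). ORA59 and CHIB lie lower in every h2a.w-1 library than in every WT library, and PDF1.2a and PDF1.2c are high in h2a.w-1 library C alone among the mutant libraries.

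The transcription factors come first in the pathway. ORA59, which integrates the ethylene and jasmonate signals at defensin promoters, had 103, 67 and 29 reads in libraries A to C of h2a.w-1, and 236, 276 and 74 reads in h2a.w-2-labelled libraries, against 432, 369 and 185 reads in WT. Every h2a.w-1 library was below every WT library, and of h2a.w-2-labelled libraries, A and C were below the WT range after normalization and B was inside it. The normalized count of ORA59 averaged 61.7 ± 27.7 in h2a.w-1, 193 ± 80.1 in h2a.w-2-labelled libraries and 300.1 ± 67.4 in WT (SD, n = 3 each).

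ORA59 fell in h2a.w-1, with a log2 fold change of -2.31 (standard error 0.33, 95% interval -3.06 to -1.56, limma's adjusted p = 0.0034). In h2a.w-2-labelled libraries its log2 fold change against WT was -0.66 (standard error 0.31, interval -1.37 to 0.05, adjusted p = 0.445), and -0.91 without library B (adjusted p = 0.487). Set directly against h2a.w-1, ORA59 was higher in h2a.w-2-labelled libraries by 1.66 on the log2 scale (standard error 0.43, adjusted p = 0.0241). This difference did not pass without h2a.w-2-labelled library B (1.4, adjusted p = 0.0573) or A (1.57, adjusted p = 0.0577), nor without h2a.w-1 library B (1.71, adjusted p = 0.0733) or C (1.32, adjusted p = 0.0655).

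ERF1, the direct target of EIN3, was scarce in every genotype. It had 21, 13 and 9 reads in h2a.w-1, and 27, 37 and 18 reads in h2a.w-2-labelled libraries, against 40, 35 and 5 reads in WT. The WT libraries differed among themselves by 5.43 times after normalization, more than any mutant group, and their range covered every h2a.w-1 library. The log2 fold change of ERF1 was -0.59 in h2a.w-1 (interval -2.01 to 0.83, adjusted p = 0.545) and 0.45 in h2a.w-2-labelled libraries (interval -0.79 to 1.69, adjusted p = 0.728), and 0.28 without library B (adjusted p = 0.869). Without WT library C the value in h2a.w-1 was -1.20 (adjusted p = 0.0502), and the value in h2a.w-2-labelled libraries turned to -0.15.

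PDF1.2b, the defensin copy on chromosome 2, had 19, 2 and 16 reads in h2a.w-1, and 19, 14 and 1 reads in h2a.w-2-labelled libraries, against 63, 51 and 100 reads in WT. All 6 mutant libraries were below all 3 WT libraries. The normalized count averaged 12.2 ± 8.93 in h2a.w-1, 10.6 ± 8.15 in h2a.w-2-labelled libraries and 72.8 ± 43.3 in WT (SD, n = 3 each).

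PDF1.2b fell in h2a.w-1, with a log2 fold change of -2.79 (standard error 0.80, interval -4.62 to -0.95, adjusted p = 0.0473). This call rested on every library: with any 1 of the 6 left out, the log2 fold change lay between -3.30 and -1.81 and the adjusted p between 0.0548 and 0.104. In h2a.w-2-labelled libraries the log2 fold change was about as large, -2.77 (standard error 0.80, interval -4.61 to -0.93), with an unadjusted p of 0.00858 in limma's fit and an adjusted p of 0.364. Without library B it was -3.11 (adjusted p = 0.487). Between the mutants PDF1.2b differed by 0.03 on the log2 scale (interval -2.44 to 2.51, adjusted p = 0.988), too wide an interval to say that they were alike.

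PDF1.2a had 26, 5 and 91 reads in h2a.w-1, and 21, 5 and 1 reads in h2a.w-2-labelled libraries, against 45, 86 and 74 reads in WT. In h2a.w-1, library C was above every WT library and libraries A and B were below all of them. All 3 h2a.w-2-labelled libraries were below WT. The normalized count of PDF1.2a averaged 43.6 ± 52.9 in h2a.w-1, 8.34 ± 9.23 in h2a.w-2-labelled libraries and 67.1 ± 27.2 in WT (SD, n = 3 each).

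Neither mutant passed the test for PDF1.2a. The log2 fold change was -1.50 in h2a.w-1 (standard error 0.81, interval -3.36 to 0.36, adjusted p = 0.239), and -2.43 without library C (adjusted p = 0.0849). In h2a.w-2-labelled libraries it was -3.20 (standard error 0.79, interval -5.02 to -1.38), with an unadjusted p of 0.00367 in limma's fit and an adjusted p of 0.297, and -3.0 without library B (adjusted p = 0.487).

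PDF1.2c, the tandem neighbor of PDF1.2a, was the scarcest defensin of the 3 in WT. It had 5, 1 and 49 reads in h2a.w-1, and 3, 1 and 0 reads in h2a.w-2-labelled libraries, against 10, 10 and 2 reads in WT. Library C of h2a.w-1 was again the highest, at 870% of the WT mean, where PDF1.2a was at 155% and PDF1.2b at 25.1%. The log2 fold change in h2a.w-1 was 0.00 (standard error 1.19, adjusted p = 1), and -1.31 without library C (adjusted p = 0.338). In the comparison of h2a.w-2-labelled libraries with WT, PDF1.2c was under the minimum mean normalized count of 5 and was not fitted, and a two-sided exact permutation test on its normalized count gave p = 0.2, where 0.1 is the smallest value that 3 libraries against 3 allow. It was not fitted without library B either. A count of 0 reads allows for up to 3 reads in that library.

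Summed over the 3 genes, PDF1.2 reads numbered 50, 8 and 156 in h2a.w-1, and 43, 20 and 2 in h2a.w-2-labelled libraries, against 118, 147 and 176 in WT. The normalized sum in h2a.w-2-labelled libraries stayed below WT in each library, while in h2a.w-1 library C lay within the WT range. PDF1.3, the chromosome 2 neighbor of PDF1.2b, had 7, 2 and 47 reads in h2a.w-1, and 33, 17 and 1 reads in h2a.w-2-labelled libraries, against 44, 54 and 22 reads in WT. Its h2a.w-1 library C was thus also the highest of that genotype. In the same library ORA59 was at 11% of the WT mean, its lowest value in any of the 9 libraries, and CHIB was at 32.1%, also its lowest.

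HEL, a hevein-like protein that binds chitin and carries an antifungal activity, was the most abundant member. It had 1247, 897 and 730 reads in h2a.w-1, and 1846, 2420 and 927 reads in h2a.w-2-labelled libraries, against 2541, 1374 and 1012 reads in WT. After normalization every h2a.w-1 library was below every WT library, while h2a.w-2-labelled libraries overlapped WT. HEL averaged 918 ± 131 in h2a.w-1, 1761 ± 499 in h2a.w-2-labelled libraries and 1508 ± 524 in WT (normalized count, SD, n = 3 each).

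The log2 fold change of HEL was -0.67 in h2a.w-1 (standard error 0.22, interval -1.17 to -0.16, adjusted p = 0.0743), which did not pass. In h2a.w-2-labelled libraries it was 0.24 against WT (interval -0.38 to 0.85, adjusted p = 0.715) and 0.03 without library B.

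CHIB, a class I chitinase that degrades fungal cell walls, had 577, 578 and 252 reads in h2a.w-1, and 730, 817 and 771 reads in h2a.w-2-labelled libraries, against 1197, 826 and 807 reads in WT. The h2a.w-1 libraries were all below WT after normalization, and library C of those labelled h2a.w-2 was the highest of all 9. The normalized count of CHIB averaged 444 ± 138 in h2a.w-1, 845 ± 231 in h2a.w-2-labelled libraries and 896 ± 166 in WT (SD, n = 3 each).

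CHIB fell in h2a.w-1, with a log2 fold change of -1.04 (standard error 0.24, interval -1.59 to -0.48, adjusted p = 0.0227), just past the fold of 1 on the log2 scale that a call required. The call was lost without h2a.w-1 library A, h2a.w-1 library C, WT library A or WT library C, with log2 fold changes of -1.14, -0.76, -0.95 and -0.96 and adjusted p-values of 0.0515, 0.0268, 0.0522 and 0.0676. In h2a.w-2-labelled libraries the log2 fold change of CHIB was -0.10 (interval -0.60 to 0.39, adjusted p = 0.855), and -0.05 without library B. The smallest PDF1.2 counts in h2a.w-2-labelled libraries and the highest CHIB level therefore came from the same library, C.

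**Figure D2:**
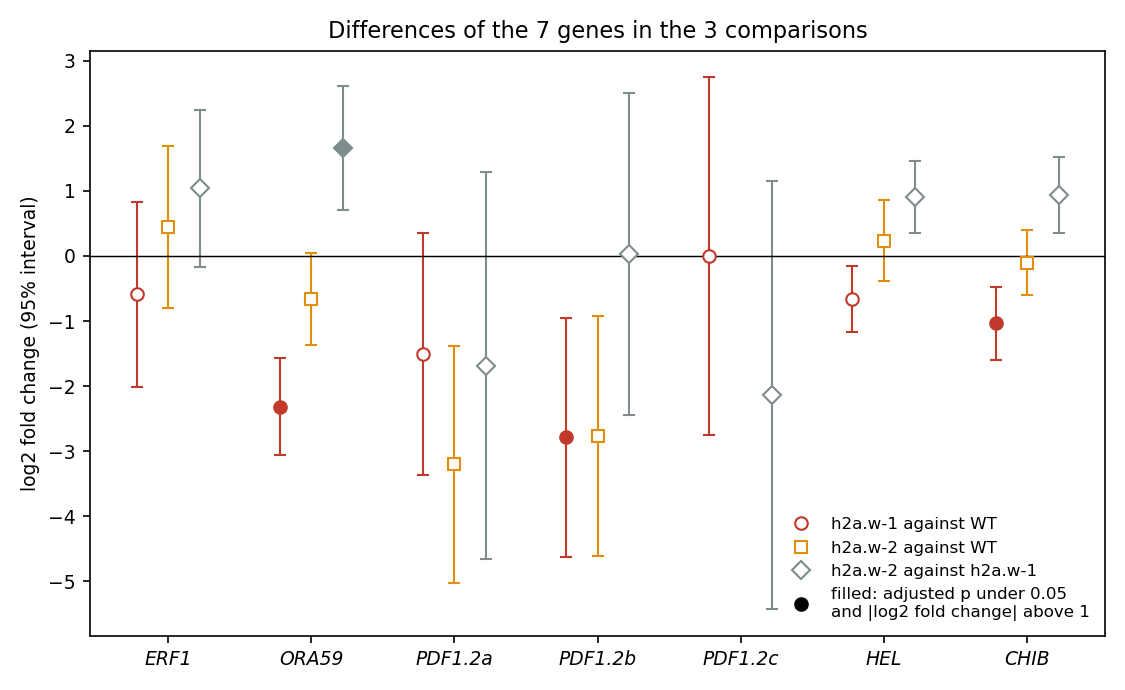
Log2 fold change with its 95% interval (y axis) of the 7 genes for h2a.w-1 against WT (circles), h2a.w-2-labelled libraries against WT (squares) and h2a.w-2-labelled libraries against h2a.w-1 (diamonds). Filled symbols passed an adjusted p under 0.05 with an absolute log2 fold change above 1, which were ORA59, PDF1.2b and CHIB in h2a.w-1 and ORA59 between the mutants. PDF1.2c was not fitted for the squares.

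Over the 7 members, 3 of 7 tested were called lower and 0 higher in h2a.w-1. Of all 20683 features tested in that comparison, 3.15% were called lower and 1.7% higher. The median log2 fold change of the members was -1.04, against -0.01 over all features tested. In h2a.w-2-labelled libraries, limma called 0 of the 6 members tested, with either way of weighting (voom or a trend), and 2 had an unadjusted p under 0.05. In that comparison only 0.0145% of 20635 features were called lower and 0.0339% higher, so that a count of 0 among 6 members is at the background. Their median was -0.38, against 0.00 over all features tested. Without library B, 0 of the 6 were called by limma, 3 had an unadjusted p under 0.05 and the median was -0.48. Of all 20631 features tested without library B, 2100 had an unadjusted p under 0.05. The same share was not counted in the fits with all libraries. Counts at an unadjusted p from those fits, here and in the lists below, therefore have no background beside them.

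Counting libraries alone, 4 of 7 members in h2a.w-1 (PDF1.2b, HEL, CHIB and ORA59) had all 3 libraries below all 3 WT libraries, where 18.1% of the features past the filter (mean normalized count 5 or more) did. In h2a.w-2-labelled libraries this held for 2 of 7 members (PDF1.2a and PDF1.2b), where 10.1% of the features did. Without library B it held for 3 of 7 (ORA59 also), where 16.7% of the features did. PDF1.2b was in both sets, and the comparisons share their WT libraries.

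Between the mutants, 1 of 7 members (ORA59) was called higher in h2a.w-2-labelled libraries than in h2a.w-1 and 0 lower, against 3.99% and 2.02% of 20615 features. With ORA59, HEL, CHIB and ERF1, 4 of 7 members had all 3 h2a.w-2-labelled libraries above all 3 h2a.w-1 libraries, where 18.4% of the features past the filter did. Without library B the 4 were the same, where 22.2% of the features did. HEL differed by 0.91 (standard error 0.25, adjusted p = 0.0304) and CHIB by 0.94 (standard error 0.26, adjusted p = 0.0339) on the log2 scale, past the adjusted p and short of the fold, and ERF1 by 1.04 (standard error 0.54, adjusted p = 0.22). At an adjusted p under 0.05 with no fold required, 9.11% of the features were higher in h2a.w-2-labelled libraries. PDF1.2a and PDF1.2c ran the other way without passing, with log2 differences of -1.68 (interval -4.65 to 1.28, adjusted p = 0.433) and -2.14 (interval -5.42 to 1.15, adjusted p = 0.364). Without library B, HEL differed by 0.69 (adjusted p = 0.0873) and CHIB by 0.99 (adjusted p = 0.0601), and 0 of 7 members were called.

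**Figure D3:**
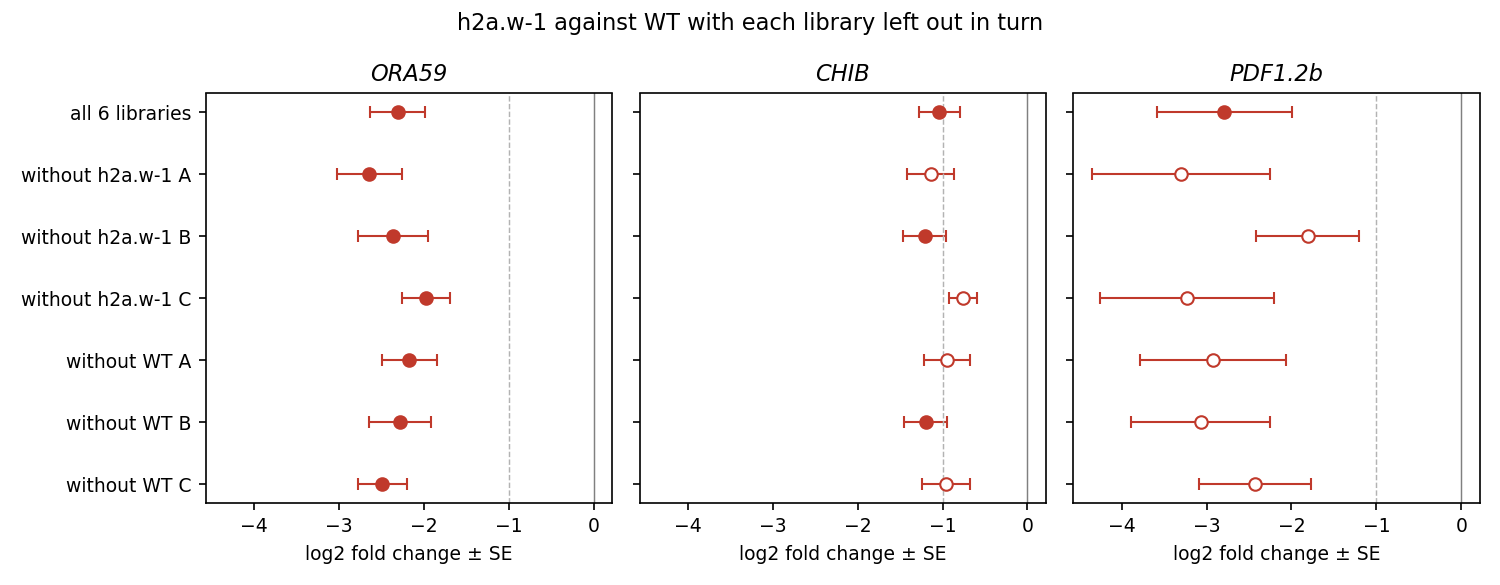
Log2 fold change ± standard error (x axis) of ORA59, CHIB and PDF1.2b in h2a.w-1 against WT, with all 6 libraries and with each library left out in turn (y axis). Filled circles passed the test, and the dashed line marks a log2 fold change of -1. ORA59 passed in all 6 of these fits, CHIB in 2 of 6 and PDF1.2b in 0 of 6.

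The genes that act before the members gave no calls against WT. Of 12 genes of ethylene perception and signaling, all tested, 0 were called in h2a.w-1 and 0 in h2a.w-2-labelled libraries, with 4 and 2 at an unadjusted p under 0.05. The largest log2 fold changes in h2a.w-1 were -0.82 for the receptor gene ETR2 (adjusted p = 0.018, short of the fold) and -0.44 for EBF2 (adjusted p = 0.122), which encodes an F-box protein that targets EIN3 for degradation. In h2a.w-2-labelled libraries they were 0.52 for EBF1 (adjusted p = 0.438) and 0.48 for EIN3 (adjusted p = 0.415). EIN3 itself was at -0.03 in h2a.w-1 and EIL1 at 0.02. The median of the list was -0.11 in h2a.w-1 and 0.24 in h2a.w-2-labelled libraries.

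The 4 genes of ethylene biosynthesis were all below 0 in h2a.w-1, at a median of -0.93, and 0 of 4 were called. In limma's fit all 4 had an unadjusted p under 0.05, and 3 had an adjusted p under 0.05 but were short of the fold. Of all 20683 features tested in h2a.w-1, 10635 were below 0, and 3596 had an adjusted p under 0.05 in either direction. ACS2 and ACS6 encode ACC synthases, which make the precursor of ethylene, and ACS2 had the largest log2 fold change, -1.32 (adjusted p = 0.0535). In h2a.w-2-labelled libraries 0 of 4 were called, with 1 at an unadjusted p under 0.05, and ACS2 was at -0.81 (adjusted p = 0.429).

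Of 5 genes of jasmonate perception (the receptor gene COI1, MYC2, MYC3, MYC4 and the Mediator subunit gene MED25), 0 were called in either mutant, with 1 at an unadjusted p under 0.05 in h2a.w-1 and 0 in h2a.w-2-labelled libraries. MED25 had the largest log2 fold change in h2a.w-1, -0.26 (adjusted p = 0.122), followed by MYC2 at -0.16 (adjusted p = 0.675). In h2a.w-2-labelled libraries these were MYC2 at 0.53 (adjusted p = 0.494) and COI1 at 0.17 (adjusted p = 0.581), with MYC2 at 0.27 without library B.

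Of 11 other ERF factors in the list, 7 were tested in h2a.w-1, all 7 had a log2 fold change below 0 and 2 were called. Of all 20683 features tested in h2a.w-1, 10635 had a log2 fold change below 0 and 651 were called lower. ERF1A (-1.13, adjusted p = 0.0486) and ERF6 (-1.96, adjusted p = 0.0497), activators induced by stress, fell in h2a.w-1. Both adjusted p-values lay just under 0.05, and these 2 genes were not followed with a library left out. ERF6 had 155, 181 and 21 reads in h2a.w-1, and 235, 950 and 139 reads in h2a.w-2-labelled libraries, against 452, 528 and 191 reads in WT. In h2a.w-2-labelled libraries 0 of 8 were called, with 1 at an unadjusted p under 0.05, and the largest log2 fold changes were 0.68 for ERF1A (adjusted p = 0.448) and -0.49 for ERF98 (adjusted p = 0.613).

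Of 9 other defensin and thionin genes, 6 were tested in h2a.w-1, where PDF2.5 fell (-1.26, adjusted p = 0.0315) and 0 were called higher. PDF2.1 ran the other way in h2a.w-1, at 0.83 (adjusted p = 0.0308, short of the fold), with all 3 h2a.w-1 libraries above all 3 WT libraries. In h2a.w-2-labelled libraries 0 of 7 were called, with 2 at an unadjusted p under 0.05, and the largest log2 fold changes were -1.64 for PDF1.3 (adjusted p = 0.436) and 1.61 for PDF1.4 (adjusted p = 0.435), with PDF1.4 at 0.94 without library B. The MYC2 branch is the other output of jasmonate. VSP2, a vegetative storage protein gene of that branch, had 1200, 878 and 484 reads in h2a.w-1, and 49, 48 and 34 reads in h2a.w-2-labelled libraries, against 111, 76 and 66 reads in WT. VSP2 rose in h2a.w-1 by 3.31 on the log2 scale (adjusted p = 0.000915), while VSP1 (0.46) and the lipoxygenase gene LOX2 (0.79) did not pass.

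In h2a.w-2-labelled libraries, 0 of the 3 MYC2-branch genes were called, with 2 at an unadjusted p under 0.05, and LOX2 (-0.95, adjusted p = 0.578) and VSP1 (-0.93, adjusted p = 0.155) had the largest log2 fold changes. Of the salicylate outputs PR1, PR2 and PR5, 0 of 3 were called in either mutant, with 1 at an unadjusted p under 0.05 in each. The largest log2 fold changes were -1.20 for PR1 and -0.92 for PR5 in h2a.w-1, and 3.05 for PR1 and -1.62 for PR2 in h2a.w-2-labelled libraries, with PR2 at -2.56 without library B. Without that library, 0 of 42 genes tested in the 7 pathway lists were called against WT by limma. An unadjusted p under 0.05 was reached by 10 of the 42, against 2100 of all 20631 features tested.

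**Figure D4:**
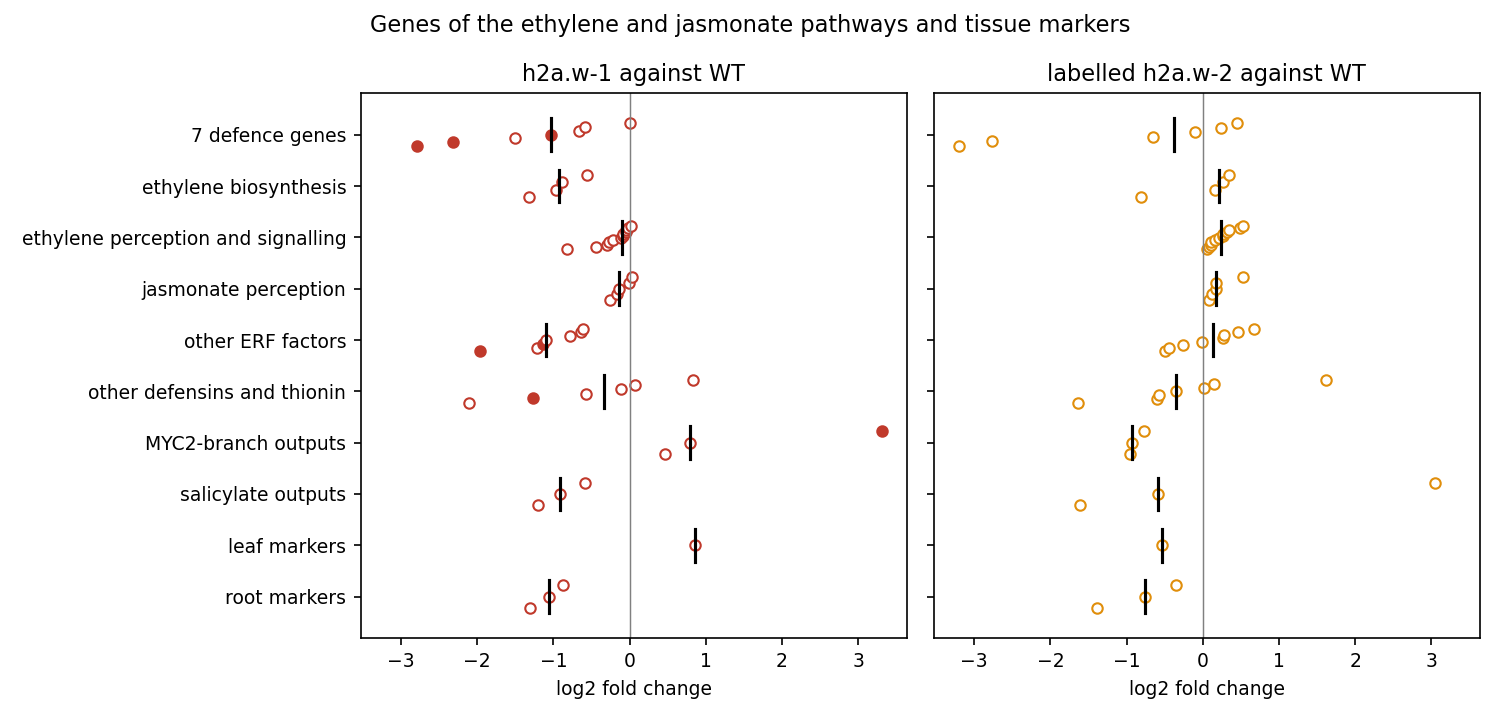
Log2 fold change (x axis) of every tested gene of each list (y axis) in h2a.w-1 against WT (left) and in h2a.w-2-labelled libraries against WT (right). Circles are genes, filled where they passed the test, and black bars are medians. In h2a.w-1 the 7 other ERF factors and the 4 ethylene biosynthesis genes lie below 0 and VSP2 lies at 3.31, while no gene of these lists passed in h2a.w-2-labelled libraries. Of all 20683 features tested in h2a.w-1, 10635 were below 0.

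Tissue markers also stood at different levels between genotypes, and their part in the results was not tested. Of 4 root marker genes, the 3 tested (EXPA7 and COBL9 of root hairs, CASP1 of the endodermis) summed to a normalized 144 to 357 in h2a.w-1, and 232 to 441 in h2a.w-2-labelled libraries, against 313 to 881 in WT. None of the 3 was called in either mutant, with 2 at an unadjusted p under 0.05 in h2a.w-1 and 0 in h2a.w-2-labelled libraries, and the largest log2 fold changes were -1.31 for EXPA7 and -1.06 for CASP1 in h2a.w-1, and -1.39 for EXPA7 and -0.76 for COBL9 in h2a.w-2-labelled libraries (COBL9 at -0.47 without library B). Among 3 leaf markers, LHCB1.1, a chlorophyll-binding protein gene, was the only 1 tested, with a normalized count of 5464 to 7621 in h2a.w-1, and 2329 to 2958 in h2a.w-2-labelled libraries, against 3035 to 4888 in WT. Its log2 fold change was 0.86 in h2a.w-1 (adjusted p = 0.0216, short of the fold) and -0.54 in h2a.w-2-labelled libraries (adjusted p = 0.404). RBCS1A, LHCB1.3 and the root gene BGLU23 were too abundant for reads of single libraries to be recovered. The authors' mean normalized counts for RBCS1A were 29540 in h2a.w-1 against 21100 in WT in the table of h2a.w-1, and 18300 in h2a.w-2 against 20200 in WT in the table of h2a.w-2. For LHCB1.3 they were 51470 in h2a.w-1 against 41740 in WT, and 38360 in h2a.w-2 against 39970 in WT. For BGLU23 they were 23930 in h2a.w-1 against 30000 in WT, and 25080 in h2a.w-2 against 28740 in WT, so that leaf and root genes were abundant in every genotype. RBCS1A (AT1G67090) is on chromosome 1, and whether it lies in the stretch with raised copy number in h2a.w-1 was not tested.

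The features most like PDF1.2a and CHIB across the libraries were found by the Pearson correlation of log2(normalized count + 1) over the 9 libraries, among 19652 other features whose mean normalized count reached 10. The values are descriptions, since the 9 libraries fall into genotype groups and differ in depth. For PDF1.2a they were SURF1 (0.937), AT4G36580 (0.927), AT1G08937 (0.923), ABCC5 (0.922) and AT5G17270 (0.918). SURF1 had 160, 133 and 123 reads in h2a.w-1, and 149, 126 and 78 reads in h2a.w-2-labelled libraries, against 170, 181 and 120 reads in WT, a far narrower range than that of PDF1.2a. For CHIB they were AT5G58375 (0.981), RAB8C (0.977), ANAC087 (0.971), UGT85A2 (0.970) and AT5G04170 (0.964). ANAC087 had 127, 136 and 71 reads in h2a.w-1, and 156, 143 and 154 reads in h2a.w-2-labelled libraries, against 210, 163 and 154 reads in WT.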

How the data were processed

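According to the methods, the authors trimmed paired reads with Trim Galore 0.5.0, aligned them to TAIR10 with STAR (2.7.0c in the submitters' processing notes, another release in the study's software list), discarded reads with several equally good places, removed PCR duplicates with Picard, counted reads on Araport11 genes and TEs with HTSeq and compared genotypes with DESeq2. The sequencing libraries were ribosomal RNA depleted and directional. The deposited values are a signal, the authors' mean normalized counts per genotype, that is the read count over the size factor of each library, averaged over 3 libraries. The tables also hold the authors' fold changes, standard errors, statistics and p-values, which were not used.

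Because the deposited means carry 15 significant digits, reads per library could be solved for by trying all combinations of whole numbers (means up to 12000). For 29892 of 29961 features (99.77%) a single solution existed in all 9 libraries, and the rebuilt means differed from the deposited ones by at most 5.07e-15 of their value. The 69 features left out were abundant, and those kept hold 89.4% (h2a.w-1), 90.6% (h2a.w-2) and 90.5% (WT) of the summed means. On simulated means, 2000 of 2000 features came out right. These reads are a reconstruction, so the linear modelling of log values was used throughout. Each mutant was compared with WT by limma 3.58.1 in R 4.3.3 (voom weights, a prior of 0.5 reads) on features whose mean normalized count reached 5, using the size factors of that mutant's table. The mutants were compared in 1 fit over all 9 libraries with median-ratio size factors, which also scale the normalized counts printed. Benjamini-Hochberg adjustment ran over all features tested, and a feature was called when its adjusted p was below 0.05 and its log2 fold change beyond 1 in size. Tested on simulated data for h2a.w-1 against WT (20631 features), 86 of 97 features changed by 2 on the log2 scale were found and 7 of 20437 unchanged features were called. The simulation gave every feature the same dispersion. Some members vary more, such as PDF1.2a in h2a.w-1 (SD 52.9 around a mean of 43.6), so the share found need not hold for them.

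Named are the 7 members and the disrupted genes, of each list (ethylene perception and signaling, ethylene biosynthesis, jasmonate perception, other ERF factors, other defensins and thionin, MYC2-branch and salicylate outputs, and leaf, root, seed, flower and clock genes) the genes called or, with none called, the 2 with the largest absolute log2 fold change, and the 5 features most like PDF1.2a and CHIB. Values of EIN3, EIL1, VSP1 and LOX2 in h2a.w-1, the values of PDF1.3 as a neighbor of PDF1.2b, and the choice of further genes whose reads per library are printed were added after values were seen. The values of 1 listed gene that the rule names are not reported here. The members and lists were chosen with earlier results of these data known. Sequences came from the RefSeq annotation of TAIR10.1, while the authors used TAIR10, and the tables carry no coordinates. Samples of other assays were not used. Alternatives were other filters, scalings, thresholds, a trend in place of voom weights, other sets of libraries in the fit and leaving out each library.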

Additional observations from a re-analysis of the deposited data

Results flagged for a closer look

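In 3 of 7 members h2a.w-2-labelled libraries and those of h2a.w-1 differed from each other in limma's fit over all 9 libraries, in a test of that difference itself. ORA59 was higher in h2a.w-2-labelled libraries by 1.66 on the log2 scale (adjusted p = 0.0241), HEL by 0.91 (adjusted p = 0.0304) and CHIB by 0.94 (adjusted p = 0.0339). At the same adjusted p under 0.05, with no fold required, 9.11% of 20615 features were higher. In each of the 3 genes, 3 of 3 h2a.w-2-labelled libraries were above 3 of 3 libraries of h2a.w-1, as in 18.4% of the features. Without library B, whose HTA12 level went against its label, the values were 1.4, 0.69 and 0.99, with adjusted p-values of 0.0573, 0.0873 and 0.0601.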

How the results depend on the processing

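No paired analysis was possible because the columns carry no replicate numbers. Without a fold threshold, 3596 features were called in h2a.w-1 against WT in place of 1002, and between the mutants 3707 features with 3 members in place of 1238 with 1. In h2a.w-2-labelled libraries against WT, 10 features were called, and 33 with no filter beyond 1 read, 42 at an adjusted p under 0.1 and 41 with all 9 libraries in 1 fit. The paper, with DESeq2 at an adjusted p under 0.05 and the same fold, reported more differing PCGs than any of these counts. With each library left out in turn, 656 (without h2a.w-1 library A) to 1207 features and 1 to 2 members were called in h2a.w-1, 3 to 11 features and 0 members in h2a.w-2-labelled libraries, and 0 to 2 members between the mutants, 0 of them without h2a.w-1 library C or h2a.w-2-labelled library B. The call of ORA59 in h2a.w-1 held in all 14 alternatives, those of CHIB in 10 and PDF1.2b in 8, and ORA59 between the mutants in 13 of 17. Among these alternatives, the adjusted p under 0.1 and the missing fold threshold reuse the main fit, so a call could not be lost there.

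Some uncalled values near 0 turned round. PDF1.2c in h2a.w-1 was at -0.01 with a minimum of 10 and at 0 (rounded) with all 9 libraries in 1 fit, and ran between -1.31 and 1.09 with a library left out. PDF1.2b between the mutants was at -0.06 with no filter, -0.03 scaled by total reads, and -0.21 and -0.23 with a trend on log2(normalized count + 1) or + 0.5, and ran between -0.94 and 0.80 with a library left out. In h2a.w-2-labelled libraries, leave-one-out values ran between -0.31 and 0.06 for CHIB and between -0.15 and 0.86 for ERF1. The causes were not tested. ERF1 and the 3 PDF1.2 genes had few reads, which limits their precision.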

Other observations

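Seed, flower and clock genes were also listed, and 0 of the genes tested in these lists were called by limma in either mutant. The seed storage protein gene CRU3 had 1, 21 and 19 reads in h2a.w-1, and 0, 1 and 1 reads in h2a.w-2-labelled libraries, against 0, 1 and 0 reads in WT. Its log2 fold change in h2a.w-1 was 3.47 (unadjusted p = 0.043, limma's adjusted p = 0.14), and it was too low to be tested in h2a.w-2-labelled libraries. The oleosin gene OLEO1 and the flower genes AP1 and AG were too low to be tested in either mutant. Of the 4 clock genes, 2 had an unadjusted p under 0.05 in each mutant. The largest log2 fold changes were 0.55 for GI (adjusted p = 0.0265, short of the fold) and -0.47 for LHY in h2a.w-1, and 0.80 for CCA1 and 0.75 for GI in h2a.w-2-labelled libraries.

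Between the mutants, the pathway lists and the leaf markers held further calls. Of all 20615 features tested between the mutants, 3.99% were called higher in h2a.w-2-labelled libraries and 2.02% lower. ETR2 (1.17), ERF1A (1.80) and PDF1.4 (3.37) were higher in h2a.w-2-labelled libraries than in h2a.w-1 on the log2 scale, with limma's adjusted p-values of 0.00208, 0.00724 and 0.0401. PDF2.1 (-1.18), VSP1 (-1.38), VSP2 (-4.08) and LHCB1.1 (-1.39) were lower, with adjusted p-values of 0.0105, 0.00949, 0.000141 and 0.00186. All of these genes were also called without h2a.w-2-labelled library B. PDF1.4 had 10, 48 and 13 reads in h2a.w-2-labelled libraries, against 2, 5 and 0 reads in h2a.w-1.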
